A study of Mus musculus with 2 samples.

Results

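The 10 genes described here encode subunits that set apart the 3 forms of the mammalian BAF chromatin remodeling complex. They were chosen by name, as Arid1a, Arid1b and Dpf2 of canonical BAF (cBAF), Arid2, Pbrm1, Brd7 and Phf10 of polybromo-associated BAF (PBAF), and Brd9, Bicra and Bicral of noncanonical BAF (ncBAF). All 10 were among the 32544 genes listed for these libraries. Single-cell mRNA sequencing (scRNA-Seq) had been run on mouse bone marrow-derived monocytes (BMDMs) 1 day after they were induced toward osteoclasts (OCs). These are myeloid cells that resorb bone. Both cultures received M-CSF at 50 ng/ml and RANKL at 100 ng/ml, and the study took marrow from mice of 4 to 6 weeks, regardless of sex. The control group held 1 library, and its Cre and floxed alleles were not given in the labels. The LysM-Cre;Arid1afl/fl group held 1 library, called the mutant library here. Its Cre is driven by the lysozyme M promoter, which is active in myeloid cells, and the loxP sites flank exons 5 and 6 of Arid1a. The question put to these counts was which subunits were higher where Arid1a was lower.

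BAF complexes use the energy of ATP to slide or evict nucleosomes. The 3 forms share the ATPase and a core and differ in the subunits that direct them to chromatin. ARID1A and its paralog ARID1B are mutually exclusive DNA-binding subunits of cBAF, so each complex holds one or the other, and DPF2 is a PHD finger protein of the same form. PBAF carries ARID2 in their place, with the multi-bromodomain protein PBRM1, the bromodomain protein BRD7 and the PHD finger protein PHF10. The ncBAF form has no ARID subunit. It is built around BRD9, a bromodomain protein related to BRD7, with BICRA or its paralog BICRAL.

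The filters on genes and mitochondrial UMIs kept 6269 cells of the control and 5663 of the mutant library, with medians of 23978 and 21734 UMIs per cell. Each gene's level is its unique molecular identifiers (UMIs) summed over the cells and scaled to counts per 1e6 UMIs (CPM). Values in parentheses give the 95% interval, which covers counting error and nothing else. With 1 library per group no difference has a replicate check, and genotype, animal, culture and library preparation cannot be told apart. Every one of the 6 monocytic markers was counted in both libraries, and their sum was 1286 CPM in the control against 2586 CPM in the mutant library. The 4 neutrophil markers summed to 264 CPM in the control against 1982 CPM in the mutant library, each at 11.9 CPM or more. The 5 stromal markers summed to 6.13 and 11.6 CPM, and 2 of the 3 erythroid and 1 of the 4 lymphoid markers were at 0 in each library. The 2 libraries had 8 cell barcodes in common, 7 of them among the cells kept.

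In GRCm39 (GENCODE M39), Arid1a occupies positions 133406304 to 133484080 of chromosome 4 (minus strand), and Arid1b positions 5044607 to 5397931 of chromosome 17 (plus strand). Brd9 lies on chromosome 13 from 74085904 to 74109932 on the plus strand. Its first 171 bases overlap the start of Trip13, a mitotic checkpoint gene on the opposite strand. Of the PBAF genes, Pbrm1 lies on chromosome 14 from 30741081 to 30844178, Brd7 on chromosome 8 from 89057667 to 89088875, Phf10 on chromosome 17 from 15164719 to 15182008 and Arid2 on chromosome 15 from 96184638 to 96302873. Dpf2 is found on chromosome 19 from 5946544 to 5963038, Bicra on chromosome 7 from 15704596 to 15782088 and Bicral on chromosome 17 from 47109046 to 47169408.

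Promoter windows of RefSeq, each from 250 bases before to 50 bases after a start site (GRCm38.p6), were found for 7 of the 10 genes. Those of Arid1a, Pbrm1 and Brd9 are printed because these 3 genes were at least 1.3-fold higher in cycling cells of both libraries under the gates described further on, and that of Arid1b because it was not. Some of these calls depend on the gates. For Arid1a, which has 2 start sites, the window of the more upstream site is given. Capitals mark the sequence TTCGAA, a form of the cell cycle genes homology region (CHR) known from promoters of genes expressed late in the cell cycle.
Arid1a, chr4:133756720-133757019, minus strand: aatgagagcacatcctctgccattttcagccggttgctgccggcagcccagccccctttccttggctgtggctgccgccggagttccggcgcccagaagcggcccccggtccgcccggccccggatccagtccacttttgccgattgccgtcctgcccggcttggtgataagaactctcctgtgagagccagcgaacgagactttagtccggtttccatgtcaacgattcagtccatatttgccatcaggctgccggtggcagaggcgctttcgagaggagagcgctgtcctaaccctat
Arid1b, chr17:4994824-4995123, plus strand: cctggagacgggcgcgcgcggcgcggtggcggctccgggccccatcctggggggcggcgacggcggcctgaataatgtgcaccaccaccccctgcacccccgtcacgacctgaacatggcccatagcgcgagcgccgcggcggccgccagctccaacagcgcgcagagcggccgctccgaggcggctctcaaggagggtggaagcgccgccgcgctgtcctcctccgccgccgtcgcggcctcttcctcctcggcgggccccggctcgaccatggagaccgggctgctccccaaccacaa
Pbrm1, chr14:31018888-31019187, plus strand: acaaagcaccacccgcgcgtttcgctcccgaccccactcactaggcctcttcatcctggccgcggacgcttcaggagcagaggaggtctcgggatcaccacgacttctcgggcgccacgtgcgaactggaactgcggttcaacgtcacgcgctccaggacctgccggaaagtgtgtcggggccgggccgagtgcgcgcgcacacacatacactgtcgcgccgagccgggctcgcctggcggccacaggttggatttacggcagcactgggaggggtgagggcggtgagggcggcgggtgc
Brd9, chr13:73937561-73937860, plus strand: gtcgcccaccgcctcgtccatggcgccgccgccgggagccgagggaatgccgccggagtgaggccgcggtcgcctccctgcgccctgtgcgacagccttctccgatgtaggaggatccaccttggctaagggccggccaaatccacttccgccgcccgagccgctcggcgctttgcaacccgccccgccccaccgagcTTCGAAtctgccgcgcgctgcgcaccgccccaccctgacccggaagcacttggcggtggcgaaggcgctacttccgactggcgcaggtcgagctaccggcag
TTCGAA was found in 1.56% of the 32851 promoter windows, searched on both strands. Among the members it was present in Brd9 alone, in both of its windows, 52 and 69 bases before the respective start site. Its window and that of Trip13 share 143 bases, including this motif. The other CHR form searched, TTTGAA, was in no member window and in 17.9% of all windows. A CCAAT box was found in the Dpf2 window (37.4% of all windows), and the interferon-response motif GAAANNGAAA in the Brd7 window (3.44% of all). The motifs do not overlap one another in these windows, and a match is a description of the letters only.

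Arid1a, the targeted gene, was lower in the mutant library, and its paralog Arid1b was higher. For Arid1a, 8490 UMIs were counted in the control library, or 51.9 CPM (50.8 to 53.0). In the mutant library it had 2685 UMIs, or 20.4 CPM (19.7 to 21.2). The log2 ratio of mutant over control was -1.34 (-1.41 to -1.28). A 3′ count does not read the floxed exons, so transcripts of a recombined allele that keep their 3′ end are still counted.

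Arid1b stood at 19.2 CPM (18.6 to 19.9) in the control library against 27.4 CPM (26.5 to 28.3) in the mutant library, a log2 ratio of 0.51 (0.44 to 0.58). The intervals of the libraries did not overlap for either paralog. Together the pair had 71.1 CPM in the control against 47.8 CPM in the mutant library, with a log2 ratio of -0.57 (-0.62 to -0.53). The difference of Arid1b in CPM was thus smaller than that of Arid1a, and opposite in sign. The third cBAF gene, Dpf2, had 29.7 CPM in the control against 32.0 CPM in the mutant library (log2 ratio 0.11, 0.049 to 0.17). Its direction is not settled, because the ratio was -0.00077 with mitochondrial and ribosomal protein genes not counted in the totals.

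Of the PBAF genes, the most abundant were close to equal in the libraries. Pbrm1 had 109.5 CPM in the control against 106.7 CPM in the mutant library, with a log2 ratio of -0.038 (-0.070 to -0.0061). For Brd7 the levels were 88.6 and 86.3 CPM, and its ratio was -0.039 (-0.074 to -0.0031). Both intervals exclude 0 by little, and Pbrm1 changed sign, to 0.036, in counts thinned to 5000 UMIs per cell. Phf10 was lower in the mutant library, at 27.3 CPM against 33.4 CPM, with a log2 ratio of -0.29 (-0.36 to -0.23). Arid2, the ARID subunit of PBAF, was higher, at 18.1 CPM against 15.5 CPM, with a ratio of 0.23 (0.14 to 0.31). Summed over its 4 genes, PBAF had a log2 ratio of -0.052 (-0.073 to -0.031).

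Of the ncBAF genes, Bicral alone passed the 1.3-fold rule given after these values. It had 8.04 CPM in the control (7.61 to 8.49) and 11.0 CPM in the mutant library (10.5 to 11.6), with a log2 ratio of 0.46 (0.35 to 0.57). Its paralog Bicra had only 507 and 527 UMIs, or 3.10 and 4.01 CPM, with a ratio of 0.37 (0.19 to 0.55). Brd9 had 36.2 CPM (35.3 to 37.1) and 39.2 CPM (38.1 to 40.3), with a ratio of 0.12 (0.061 to 0.17). With mitochondrial and ribosomal protein genes left out of the totals, the Brd9 ratio was 0.0058, in a setting that shifted every ratio by -0.11. The sum of the 3 genes had a ratio of 0.20 (0.15 to 0.24). An interval above 0, as for each of these genes, was common, with 48.2% of the 8650 genes of at least 5 CPM.

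A ratio of 1.3-fold or more (0.38 on the log2 scale) was counted where the mean level reached 5 CPM, as it did in 9 of the 10 members, all but Bicra. Higher in the mutant library were 2 of the 9, Arid1b and Bicral, against 22.2% of the 8650 genes at this level. Lower was 1 of the 9, Arid1a, against 13.2%. The count of higher members is close to that of all genes, and the median log2 ratio was 0.11 for the 9 members and 0.052 for all genes. With mitochondrial and ribosomal protein genes not counted in the totals, 1 member was higher (Arid1b) and 2 were lower (Arid1a and Phf10, the latter at -0.40).

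**Figure D1:**
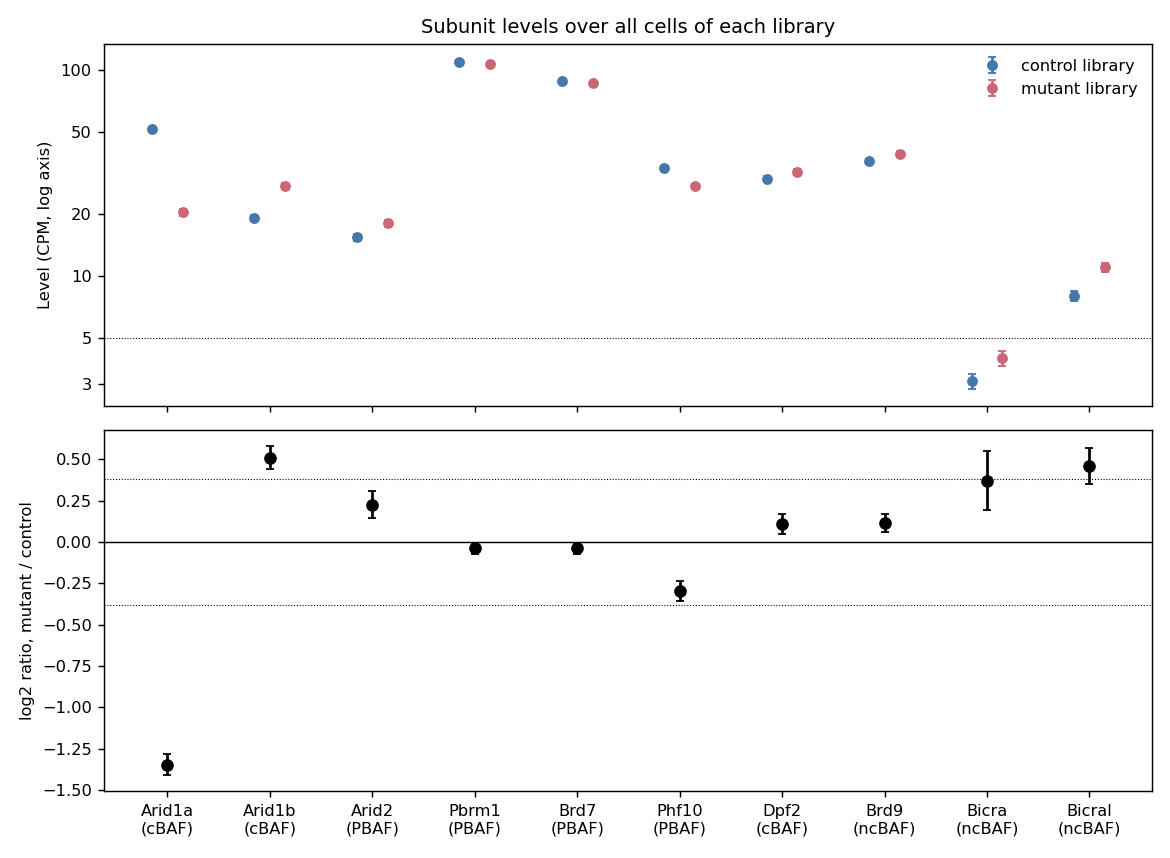
The upper panel plots the CPM of each subunit gene in the control (blue) and mutant (red) library on a log axis, with 95% Poisson intervals and a dotted line at 5 CPM. The lower panel plots the log2 ratio of mutant over control with its 95% interval, with dotted lines at 1.3-fold, where Arid1a (-1.34) lies far below the lower line and Arid1b (0.51) and Bicral (0.46) lie above the upper one.

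Each UMI stands for 1 captured 3′ end whatever the transcript's length, so levels in CPM can be put in order, although capture may differ between genes. In the control library the order was Pbrm1, Brd7, Arid1a, Brd9, Phf10, Dpf2, Arid1b, Arid2, Bicral and Bicra, and no neighbours had overlapping intervals. In the mutant library it was Pbrm1, Brd7, Brd9, Dpf2, Arid1b, Phf10, Arid1a, Arid2, Bicral and Bicra. Arid1b and Phf10 there, at 27.4 CPM (26.5 to 28.3) and 27.3 CPM (26.4 to 28.1), could not be told apart.

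Shares within the gene group do not depend on how the libraries are scaled. Arid1b made up 27.0% of the Arid1a and Arid1b UMIs in the control library (26.2 to 27.8, exact binomial) and 57.3% in the mutant library (56.1 to 58.5). The share of cBAF among all member UMIs was 25.5% in the control against 21.4% in the mutant library. PBAF took 62.5% and 64.0%, and ncBAF 12.0% (11.7 to 12.2) and 14.6% (14.3 to 14.9). With Arid1a itself left out, cBAF was at 14.2% in the control against 16.9% in the mutant library, PBAF at 72.0% and 67.7%, and ncBAF at 13.8% and 15.4%. Among related pairs, Brd9 made up 29.0% and 31.2% of Brd9 and Brd7 UMIs, and Bicra 27.8% (25.8 to 29.9) and 26.6% (24.7 to 28.6) of the Bicra and Bicral UMIs. The PHD finger pair shifted more, with Phf10 at 53.0% of Phf10 and Dpf2 UMIs in the control against 46.0% in the mutant library.

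The other BAF genes were taken from a list of 19 core and accessory subunits, of which 14 had a mean of at least 5 CPM. Higher by 1.3-fold were 2 of the 14, Smarca2, the alternative ATPase (12.3 CPM in the control, 16.4 CPM in the mutant library), and Bcl7a, an accessory subunit (3.90 and 7.23 CPM). Lower was 1, Bcl7c, of the same accessory family (45.4 and 32.8 CPM). Of all genes at this level 22.2% were higher and 13.2% lower by the same rule. The median log2 ratio of the 14 was 0.0095, with intervals above 0 for 6 and below 0 for 6. In a list of 12 genes of other remodeler families, 11 passed, of which 1 was higher, the NuRD ATPase gene Chd3 (14.2 and 31.5 CPM), and 0 were lower.

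Cells were then sorted into 4 states by a pair of gates, in cells thinned to 5000 UMIs so that depth was equal. The cycling gate required 3 or more UMIs, summed over Aurka, Cdk1, Mki67 and Top2a. The OC gate required as many, summed over Acp5, Ctsk, Dcstamp and Mmp9. Of 6101 control cells deep enough, 3366 were in neither gate, 2169 in the cycling gate only, 322 in the OC gate only and 244 in both. The mutant library had 5312 such cells, with 3414, 1712, 130 and 56 in the same order. Median depth was 22164.5 UMIs in the control cells of neither gate, 26853 in those of the cycling gate only and 25629 in those of the OC gate only, and 21203, 25436 and 21780.5 in the mutant cells. No member is a gate gene, and levels within a state use all UMIs of its cells.

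Arid1b was higher and Arid1a lower in the mutant library in every state. In cells of neither gate Arid1a had 44.9 CPM in the control against 17.7 CPM in the mutant library, and Arid1b 19.3 and 27.0 CPM. In cells of the cycling gate only, Arid1a had 62.4 and 24.3 CPM, and Arid1b 19.9 and 28.1 CPM. The cells of the OC gate only showed the smallest gap for Arid1a, with 40.3 CPM (36.3 to 44.6) and 26.2 CPM (20.9 to 32.5). There Arid1b had 14.8 CPM (12.5 to 17.5) and 26.2 CPM (20.9 to 32.5), from 83 mutant UMIs for each gene. In cells of both gates the levels were 55.1 and 26.8 CPM for Arid1a and 17.4 and 24.9 CPM for Arid1b, and the Arid1b ratio there, 0.52 (-0.023 to 1.03), does not exclude 0. Summed at the control library's mix of states, the log2 ratios were -1.29 for Arid1a, 0.51 for Arid1b and 0.16 for Brd9.

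The Arid1b share of the pair was above that of the control library in all 4 states. Cells of neither gate had 30.1% (28.9 to 31.4) in the control library against 60.4% (58.8 to 62.0) in the mutant library. Cells of the cycling gate only had 24.2% (23.1 to 25.4) and 53.6% (51.6 to 55.6). In cells of the OC gate only it was 26.9% (23.1 to 31.0) and 50.0% (42.2 to 57.9), and in cells of both gates 24.0% and 48.2%. The share was lower in cycling cells than in cells of neither gate in both libraries, with intervals that do not overlap.

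**Figure D2:**
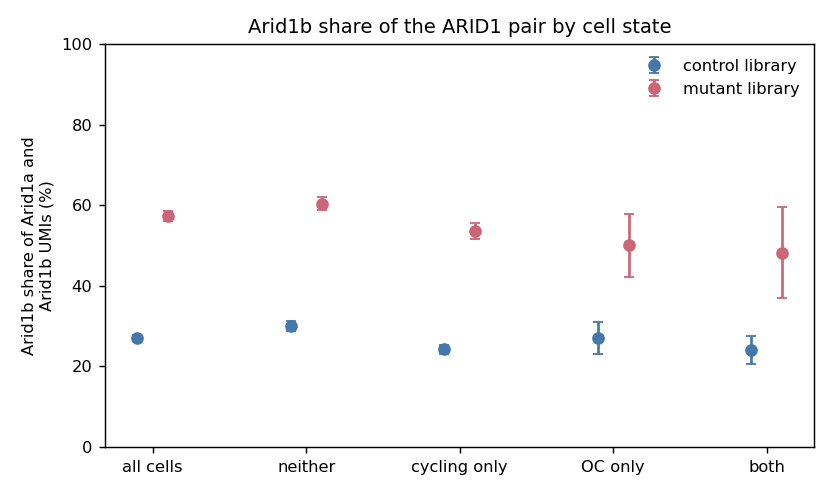
The plot gives the Arid1b share of Arid1a and Arid1b UMIs in percent, over all cells and in each state, for the control (blue) and mutant (red) library with 95% binomial intervals. Control shares lie between 24.0% and 30.1% and mutant shares between 48.2% and 60.4%.

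By the 1.3-fold rule, Arid1b and Bicral were higher and Arid1a lower in cells of neither gate (backgrounds 21.4% and 11.5%) and in cells of the cycling gate only (23.2% and 12.4%), 2 and 1 of 9 in each. In cells of the OC gate only, Arid1b alone was higher (27.7% of genes) and Arid1a alone lower (22.0%). In cells of both gates Arid1b and Arid2 were higher (28.6%) and Arid1a lower (21.4%), where Arid2 had 38 mutant UMIs and a ratio of 0.42 (-0.14 to 0.94). Bicral was the least even of these across states. Its ratio was 0.66 (0.50 to 0.82) in cells of neither gate, 0.38 (0.22 to 0.55) in cells of the cycling gate only and -0.15 (-0.88 to 0.52) in those of the OC gate only, where 24 mutant UMIs were counted. Phf10 was lower in the mutant library in each state, with ratios from -0.37 to -0.22, although the intervals of the 2 OC-gate states include 0.

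**Figure D3:**
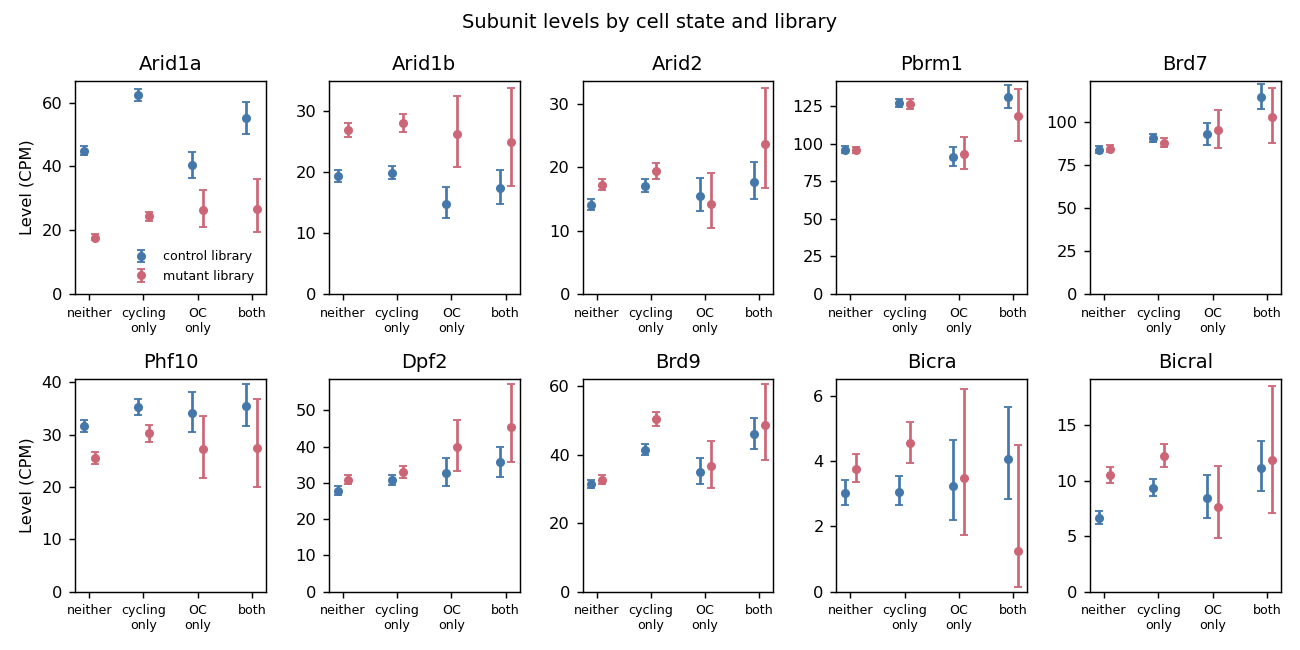
Each panel plots the CPM of 1 subunit gene in the 4 cell states for the control (blue) and mutant (red) library, with 95% Poisson intervals and axes from 0. Arid1a lies below and Arid1b above the control value in every state, while the 2 libraries' values for Pbrm1 nearly coincide in cells of neither gate (96.1 and 95.6 CPM).

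Within each library, several subunits were higher in cycling cells than in cells of neither gate. In the control library 4 of 9 members passed 1.3-fold in this direction, namely Arid1a, Pbrm1, Brd9 and Bicral, against 10.3% of genes. In the mutant library 3 of 9 did, namely Arid1a, Pbrm1 and Brd9, against 11.6%. Under 9 other choices of gates or cells, 1 to 4 members passed in the control and 1 to 3 in the mutant library. With gates at 2000 UMIs Arid1a alone passed in the control library, where Pbrm1 was at 0.34, Brd9 at 0.34 and Bicral at 0.32. Brd9 and Bicral then passed in the mutant library, with Arid1a at 0.32 and Pbrm1 at 0.36. Gates on unthinned counts left Brd9 alone in the mutant library (Arid1a 0.30, Pbrm1 0.37) and Bicral at 0.18 in the control library. At 10000 UMIs mutant Arid1a (0.36) and control Bicral (0.37) fell just short. Arid1a in the control library and Brd9 in the mutant library passed under all 9 choices. Lower by this rule were 0 of 9 members in each library, against 2.50% and 2.71% of genes. The shares of members higher are above those of all genes with the gates at 5000 UMIs, and the genes belong to all 3 complexes. Median log2 ratios were 0.28 for the members and 0.067 for all genes in the control library, and 0.22 and 0.054 in the mutant library.

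Pbrm1 had 96.1 CPM in control cells of neither gate and 126.9 CPM in cycling ones, a log2 ratio of 0.40 (0.36 to 0.45). In the mutant library it had 95.6 and 126.4 CPM, a ratio of 0.40 (0.35 to 0.45). Arid1a kept a like ratio at its lower mutant level, with 0.48 (0.41 to 0.54) in the control library against 0.46 (0.35 to 0.57) in the mutant library. How alike they were depends on the gates. Control and mutant ratios of Arid1a were 0.46 and 0.32 at 2000 UMIs, 0.50 and 0.36 at 10000 UMIs, and 0.44 and 0.30 on unthinned counts. Arid1b differed from its paralog, at 0.045 (-0.063 to 0.15) and 0.058 (-0.043 to 0.16), so that no difference between the states was detectable with these gates. Its ratios were 0.15 and 0.16 with gates of at least 5 UMIs and 0.026 and 0.21 at 2000 UMIs. On unthinned counts they were -0.021 and -0.058. Brd7, at 0.11 and 0.061, and Dpf2, at 0.14 and 0.092, were among the members with the smallest ratios. Arid2 had 0.28 and 0.17, and Phf10 0.16 and 0.24.

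Brd9 had 31.4 CPM (30.2 to 32.6) in control cells of neither gate and 32.7 CPM (31.4 to 33.9) in the mutant ones, which overlap. In cells of the cycling gate only, the levels were 41.4 CPM (39.8 to 43.0) and 50.3 CPM (48.3 to 52.4), which do not. The ratio of cycling over neither was thus 0.40 (0.32 to 0.48) in the control library against 0.62 (0.54 to 0.70) in the mutant library. The log2 ratio of mutant over control was 0.28 (0.20 to 0.36) in cycling cells and 0.058 (-0.021 to 0.14) in cells of neither gate, and differed by 0.22 (0.11 to 0.34). An interval above 0 for this difference was found for 1 of 9 members and for 17.6% of 8535 genes, so differences of this kind were common. Below 0 was 1 of 9, Bicral at -0.28 (-0.51 to -0.045), and 16.4% of genes. Brd9 made up 27.2% and 27.9% of Brd9 and Brd7 UMIs in cells of neither gate, and 31.4% and 36.4% in cycling cells.

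Trip13, which shares its start region with Brd9, was also higher in cycling cells. It had 18.0 and 34.8 CPM in the control library (0.95, 0.86 to 1.05) and 13.9 and 33.6 CPM in the mutant library (1.27, 1.16 to 1.39). Over all cells it was lower in the mutant library, with a log2 ratio of -0.28 (-0.35 to -0.21), opposite in sign to Brd9. Strand use in the counting was not stated, so reads of overlapping genes may not be kept apart. The 3′ ends of Pbrm1, Brd7 and Phf10 are covered on the opposite strand by Smim4, Adcy7 and 1600012H06Rik. These 3 partner genes had cycling-over-neither ratios of -0.27, -0.18 and -0.12 in the control library, opposite in sign to those of the members. The interval of 1600012H06Rik, -0.25 to 0.010, includes 0. Gm41002, which covers the 3′ end of Brd9, had 0 UMIs in each library. Gnl3, a nucleolar gene whose start overlaps that of Pbrm1, had a log2 ratio of mutant over control of -0.82, and Gm42067, at the start of Dpf2, had 1.48 and 1.01 CPM. Within Bicra, Gm38948 had 0 UMIs.

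**Figure D4:**
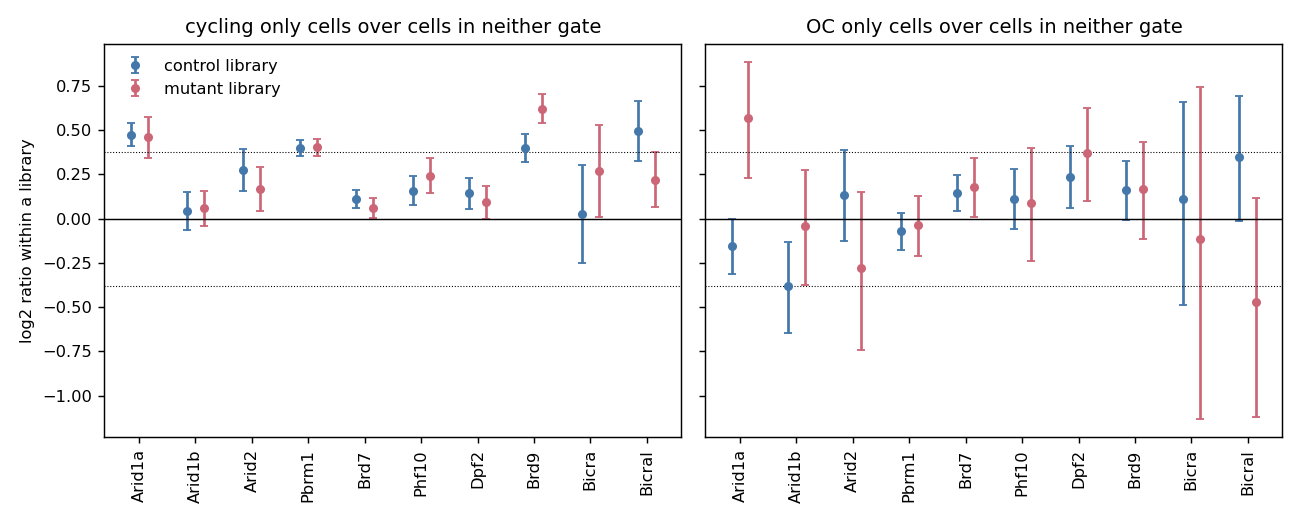
The left panel plots the log2 ratio of cells of the cycling gate only over cells of neither gate for each subunit gene, and the right panel that of the OC gate only, for the control (blue) and mutant (red) library with 95% intervals. Dotted lines mark 1.3-fold. On the left Arid1a, Pbrm1 and Brd9 lie above the line in both libraries, and on the right the Arid1a values are -0.16 and 0.57.

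Levels of Brd9, Pbrm1 and Arid1a also went up with the number of cycling-gate UMIs per cell. From cells with 0 such UMIs through 1 to 2 and 3 to 5 to those with 6 or more, Brd9 had 28.7, 34.5, 40.3 and 44.0 CPM in the control library. The mutant library had 29.9, 36.3, 45.0 and 55.8 CPM for Brd9 in the same bins, and its interval in the last bin, 52.8 to 58.9, lies above the control's, 41.7 to 46.3. For Pbrm1 the bins held 90.8, 100.2, 118.8 and 138.5 CPM in the control and 90.8, 101.3, 115.8 and 137.2 CPM in the mutant library, with overlapping intervals in each. Arid1a went from 43.0 to 67.4 CPM in the control against from 17.8 to 25.8 CPM in the mutant library. Phf10 rose over the mutant bins too, from 24.36 CPM (22.94 to 25.84) to 31.85 CPM (29.59 to 34.23). Bicral went from 9.875 to 13.74 CPM and Arid2 from 16.08 to 19.45 CPM, though not at every step. For Arid1b, Brd7, Dpf2 and Bicra the intervals of the first and last bins in the mutant library overlapped. Arid1b was at 26.9, 27.0, 26.3 and 29.8 CPM there, Brd7 at 85.6, 83.7, 87.6 and 89.3 CPM, and Dpf2 at 31.6, 30.7, 32.2 and 34.4 CPM. In the control library Brd7 went from 83.4 CPM (80.8 to 86.2) in the first bin to 93.1 CPM (89.7 to 96.5) in the last. Control Phf10 went from 30.9 to 37.3 CPM, Arid2 from 13.3 to 18.1 CPM and Bicral from 6.94 to 10.8 CPM. The first and last control intervals did not overlap for these genes, but did for Arid1b, Dpf2 and Bicra.

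Cells of the OC gate only were few in the mutant library, and most contrasts with cells of neither gate had intervals that include 0. By the 1.3-fold rule 0 of 9 members were higher in the control library (16.0% of genes) and 1 was lower, Arid1b at -0.38 (-0.64 to -0.13; 17.0% of genes). In the mutant library 1 was higher, Arid1a (10.2%), and 1 lower, Bicral at -0.47 (-1.12 to 0.11; 11.7%). Dpf2 was higher in both, at 0.24 (0.058 to 0.41) and 0.37 (0.099 to 0.63), as was Brd7 at 0.15 and 0.18.

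Arid1a went in opposite directions. In the control library it was lower in OC-gate cells, with a log2 ratio of -0.16 (-0.31 to -0.0018), and in the mutant library it was higher, with 0.57 (0.23 to 0.89) from 83 UMIs in 130 cells. The log2 ratio of mutant over control accordingly differed by 0.72 (0.35 to 1.08) between the states. An interval above 0 for that difference was found for 1 of 9 members and 16.7% of genes, and one below 0 for 1 of 9, Bicral, and 13.5%. The size of the Arid1a ratio rests on which cells pass the gate. A different random thinning gave -0.062 and 0.30, gates at 10000 UMIs gave -0.042 and 0.20, and gates on unthinned counts gave 0.0026 and -0.058. By the number of OC-gate UMIs per cell (0, 1 to 2, 3 to 5, 6 or more), Arid1a was at 52.1, 53.7, 51.4 and 43.8 CPM in the control library. The mutant bins were at 20.3, 19.7, 25.4 and 29.8 CPM, the last with 33 UMIs in 43 cells (20.5 to 41.8).

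**Figure D5:**
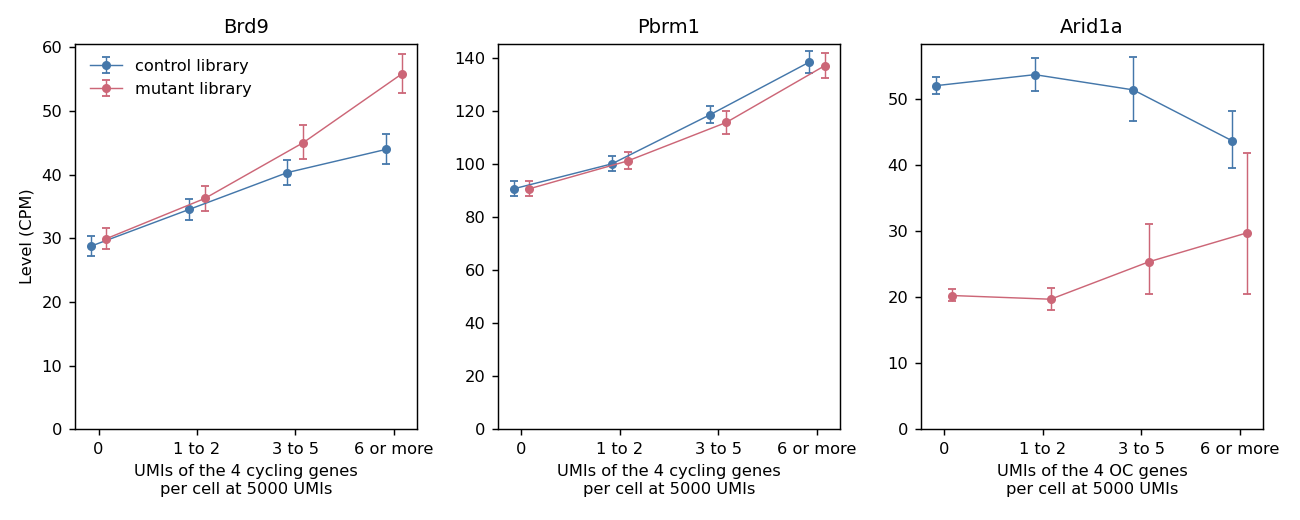
The left and middle panels plot the CPM of Brd9 and Pbrm1 against the number of cycling-gate UMIs in the cell at 5000 UMIs, and the right panel that of Arid1a against the number of OC-gate UMIs, for the control (blue) and mutant (red) library with 95% Poisson intervals. Brd9 reaches 44.0 CPM in the control against 55.8 CPM in the mutant library in the last bin, while the Pbrm1 lines lie together.

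Other subunits were also compared between single cells with and without an Arid1a UMI within each library, in cells and counts thinned to 5000 UMIs. At least 1 Arid1a UMI was present in 1350 of 6101 control cells, or 22.1% (21.1 to 23.2), and in 542 of 5312 mutant cells, or 10.2% (9.40 to 11.1). For Arid1b the shares were 9.24% (8.53 to 10.0) and 13.0% (12.1 to 13.9). Without thinning the shares were 65.9% and 34.6% of cells for Arid1a and 37.4% and 42.4% for Arid1b. The highest share was that of Pbrm1, at 39.8% and 40.4%, and the lowest that of Bicra, at 1.38% and 1.92%. The variance of the thinned UMI count per cell, divided by its mean, lay between 0.981 for Bicral and 1.09 for Arid1a, both in the control library, and a ratio of 1 is that of Poisson counts.

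At 5000 UMIs no member was higher in cells without an Arid1a UMI by the 1.3-fold rule, in either library. Arid1a was found in 22.1% of control cells at 5000 UMIs but in 65.9% without thinning. Many cells without a UMI thus hold the transcript, and the split cannot decide whether subunits differ with a cell's Arid1a level. Arid1b was at 21.5 CPM in control cells with and 18.9 CPM in those without an Arid1a UMI, a log2 ratio of 0.18 (-0.099 to 0.45). The mutant values were 30.6 and 27.9 CPM, a ratio of 0.13 (-0.21 to 0.46). At 2000 UMIs the mutant ratio turned to -0.41 (-1.55 to 0.54), past 1.3-fold in the other direction, from 9 Arid1b UMIs in cells with Arid1a. At 10000 UMIs it was 0.092 (-0.11 to 0.29). Apart from Arid1a, which defines these cells, 0 of 8 members passed 1.3-fold in either direction. Over all genes the shares were 3.34% higher and 0.877% lower with an Arid1a UMI in the control against 7.39% and 2.92% in the mutant library. Pbrm1 in the mutant library had the only interval that excludes 0 at 5000 UMIs, with 132.8 CPM with and 105.8 CPM without (0.33, 0.17 to 0.49), but 0.097 at 10000 UMIs. At 10000 UMIs control Pbrm1, at 0.12 (0.046 to 0.19), and control Arid1b, at 0.21 (0.037 to 0.38), were higher with Arid1a. So was mutant Brd9, at 0.18 (0.017 to 0.34). Over all UMIs, where depth was not equal, Pbrm1 had 0.23 (0.18 to 0.28) in the control and 0.19 (0.14 to 0.23) in the mutant library. Cells with an Arid1a UMI were more often in the cycling gate, at 47.6% of them against 37.3% of cells without one in the control library. In the mutant library these shares were 38.6% and 32.7%. The part of the cell cycle in these ratios was not tested.

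The neutrophil markers, in sum, were higher in the mutant library (1982 against 264 CPM). Cells with at least 5 UMIs of these markers at 5000 UMIs numbered 30 in the control against 110 in the mutant library. In the mutant ones Arid1a had 41.7 CPM (32.5 to 52.7), above the 20.4 CPM of all mutant cells, from 70 UMIs. In the control ones it had 57.5 CPM (38.2 to 83.1). Cells with at least 5 UMIs of stromal markers numbered 4 and 3, with 10 and 12 Arid1a UMIs. Without both kinds of cell the log2 ratio of Arid1a was -1.37 and that of Arid1b 0.51, close to the values over all cells.

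Genes whose level was most like that of Arid1a over the 8 groups of library and state were Prkar2a (Pearson r = 0.986), Vps35 (0.974) and Polr2d (0.971), among 5216 genes compared on the log2 scale. Prkar2a, a regulatory subunit of protein kinase A, had a log2 ratio of mutant over control of -1.26. Those of Vps35 (-0.18) and Polr2d (-0.36) were far from that of Arid1a, since r does not measure the size of a change. For Arid1b they were Epb41l2 (0.995), Cep170 (0.994) and Rp2 (0.991), with ratios of 0.99, 0.79 and 0.98. The 4 groups of a library share its preparation and depth, so these correlations mostly describe the step between the libraries and carry no p-value.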

How the data were processed

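Single-cell libraries of OC-induced BMDMs were made with a 10x Genomics 3′ kit, 1 control and 1 LysM-Cre;Arid1afl/fl library. The authors deposited unnormalized counts of UMIs for every gene in every barcode, and the file headers name Cell Ranger 6.1.0. GRCm39 is named in the submitters' processing notes. Strand use and doublet removal were not given in the sources used here. 

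Cells were kept with 500 or more detected genes and no more than 10% mitochondrial UMIs, which dropped some barcodes (186 of 6455 control and 202 of 5865 mutant barcodes), and doublets were kept. UMIs were summed per gene over the cells of a library or state and divided by their total to give CPM. The cells held 163618835 control and 131469887 mutant UMIs. Levels have exact Poisson intervals, log2 ratios an exact interval conditional on the summed UMIs of both groups, and shares exact binomial intervals, all at 95% and covering counting error only. Intervals of a difference of ratios were combined by square-and-add. With 1 library per group there was no test across samples. For gates, each cell was thinned to 5000 UMIs without replacement, which left out 168 control and 351 mutant cells. The ratio was tested on simulated data for mutant over control in all cells, with 200 of 8503 genes raised or lowered 2-fold. Of these, 100 of 100 raised and 100 of 100 lowered genes passed 1.3-fold, and 0 others did. Counting error was the only variation drawn, so this outcome says nothing about spread between libraries. Recovery of ratios close to 1.3-fold was not tested. In the 2 libraries themselves 22.2% of genes were higher and 13.2% lower by this rule. How many genes would pass it between replicate libraries was not tested.

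All 10 members were named, along with listed BAF and remodeler genes past 1.3-fold with a mean of at least 5 CPM, genes overlapping a member, and the 3 genes most alike in level to Arid1a and Arid1b (mean of at least 20 CPM). The members and lists were chosen with earlier results of these data known. Coordinates come from GENCODE M39, in which 31977 of 32544 identifiers matched, and promoter windows from RefSeq. Alternatives changed the scaling (edgeR 4.0.16 for TMM), cell filters, gates, folds and minimum levels. For the doublet alternative, 333 control and 275 mutant barcodes with the highest share of simulated doublets among 50 neighbours were left out (0.8% per 1000 barcodes). Analyses used Python 3.11.15 and scipy 1.17.1.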

Additional observations from a re-analysis of the deposited data

Results flagged for a closer look

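Arid1a went in opposite directions in cells of the OC gate only, relative to cells of neither gate, in the control (log2 ratio -0.16) and the mutant library (0.57), with both counting intervals off 0. With 1 library per group the difference was not tested between genotypes. The mutant value came from 83 UMIs in 130 cells, and both values changed sign under gates on unthinned counts.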

How the results depend on the processing

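Of 362 values recomputed under alternatives, 68 fell outside the interval of the reported value or moved by over 1.5 times. A further 5 also fell outside it and changed sign where that interval excluded 0. Of the 306 that are log2 values, 12 changed sign, these 5 included. With mitochondrial and ribosomal protein genes left out of the totals, the log2 ratio was -1.45 for Arid1a, 0.40 for Arid1b and -0.00077 for Dpf2, with 1 member higher and 2 lower. Arid1a was at -1.41 with TMM, -1.25 with equal weight per cell and -1.23 in thinned counts, where Pbrm1 changed sign to 0.036 and the mutant Arid1b share was 56.0%. The control Arid1b share was 27.9% with equal weight per cell. At 1.5-fold 0 members were higher and at 1.2-fold 2 were lower, and with a minimum of 20 CPM 1 was higher. Gates at 10000 UMIs put Arid1a in mutant OC-gate over neither cells at 0.20. Gates on unthinned counts turned it to -0.058, the control value to 0.0026 and the difference between states to -0.060. The cause was not tested. The Brd9 difference between cycling and neither cells stayed between 0.15 and 0.26 under 9 alternatives, 3 of them (OC gate without Acp5, doublets removed, neutrophil and stromal marker cells left out) added after the data were seen. Depth limits the states, since the 56 mutant cells of both gates held 2 Bicra and 43 Arid1a UMIs. No paired analysis was possible because each group has 1 library.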
